A study of Mus musculus with 16 samples.

Results

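H3K4me1, the monomethylated form of histone H3 lysine 4, was mapped by ChIP-seq in 3T3-L1 cells at 0 h and at 48 h of fat cell differentiation, and the enriched regions of both times were compared. An enriched region, here called an island, was taken from the list deposited for each library. The 0 h list holds 50276 islands and the 48 h list 49926, together 100202 of the 479799 islands that the 16 libraries of the series hold. An island of 48 h that met no 0 h island by at least 1 bp was called gained, an island of 0 h that met no 48 h island was called lost, and the others were called kept. The sequencing depth was close, with 31875156 total reads at 0 h and 31629740 at 48 h.

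3T3-L1 is an established line of mouse embryo fibroblasts that can form fat cells. Differentiation was started in confluent cells with insulin, dexamethasone and isobutylmethylxanthine. The samples labelled Day 0 (0 h) and Day 2 (48 h) gave 1 H3K4me1 library each, so no difference between the 2 times has a replicate check and no p-value is given. The titles of both H3K4me1 libraries name no vector, whereas their virus label reads SETD-V5, and the lists cannot tell which is right. H3K27ac was available as 2 libraries (replicates A and B) at each time in cells with the empty virus (E cells) and in cells with the virus for SETD5 (SETD5 cells). The labelled cell type was looked at through markers from a list: the 11 preadipocyte and fibroblast markers compared had a median of 27000 bp covered by H3K4me1 within 50 kb of their starts at 0 h, against 8313 bp over all genes, and 1 of the 12 listed had no island at either time. No island at either time was found for 7 of 15 hepatocyte, 5 of 12 skeletal muscle, 4 of 17 blood cell, 3 of 14 neuron, 3 of 15 bone and cartilage and 3 of 13 endothelial markers, against 6539 of all 22238 genes, so most markers of other cell types also had H3K4me1 nearby. SETD5 with a V5 tag was available at 0 h and 6 h in 2 libraries each, and endogenous SETD5 in 1 library at each of these times.

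H3K4me1 marks enhancers, the DNA elements outside promoters that raise the transcription of genes over a distance. It is placed mainly by the methyltransferases MLL3 and MLL4, and it can be present before an enhancer is used. Such primed enhancers carry H3K4me1 alone, and enhancers in use also carry H3K27ac, the acetylated form of histone H3 lysine 27. In fat cell differentiation, dexamethasone activates the glucocorticoid receptor, isobutylmethylxanthine raises cyclic AMP, and the factors C/EBPβ and C/EBPδ act before PPARγ and C/EBPα.

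The DNA under the highest-scoring gained islands is shown first. These are the gained islands ranked highest by score within the 48 h list, and the score does not measure the difference between the times. Each line gives the 200 bp window with the most motif matches in 1 of the 3 highest-scoring gained islands, read 5′ to 3′ from the NCBIM37 (mm9) assembly, with the matches in capitals. The motifs searched on both strands were C/EBP (TTGCNNAA), AP-1 (TGANTCA), TEAD (CATTCC), RUNX (TGTGGT), EBF (TCCCNNGGGA), the glucocorticoid receptor palindrome (GNACANNNTGTNC), PPAR-RXR (AGGTCA, any base, AGGTCA) and NFI (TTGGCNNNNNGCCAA), where N is any base. A match to so short a word is a description of the letters and not a bound site: of all 200 bp windows of the genome, 13.8% hold a RUNX match, 10.8% a TEAD match, 9.35% a C/EBP match, 5.93% an AP-1 match and 0.320% a glucocorticoid receptor palindrome.
Gained, near Klf9 (chr19:23264337-23264536, plus strand): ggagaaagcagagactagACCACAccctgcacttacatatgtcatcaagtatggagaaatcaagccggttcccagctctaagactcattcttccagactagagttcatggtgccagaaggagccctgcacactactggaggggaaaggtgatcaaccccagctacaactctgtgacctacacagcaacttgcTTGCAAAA
Gained, near Mrpl33 (chr5:31884109-31884308, plus strand): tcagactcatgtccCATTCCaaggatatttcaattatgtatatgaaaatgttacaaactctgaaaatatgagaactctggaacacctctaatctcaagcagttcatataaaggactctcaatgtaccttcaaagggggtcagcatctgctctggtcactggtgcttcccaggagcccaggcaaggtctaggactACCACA
Gained, near Rcl1 (chr19:29230853-29231052, plus strand): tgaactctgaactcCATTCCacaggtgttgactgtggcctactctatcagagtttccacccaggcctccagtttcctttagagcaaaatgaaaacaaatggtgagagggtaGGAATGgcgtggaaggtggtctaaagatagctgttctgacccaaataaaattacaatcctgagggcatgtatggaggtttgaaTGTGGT

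The same windows of the 3 highest-scoring lost islands are shown for comparison. The window in an intron of Pgm5 held a pair of AP-1 matches and a C/EBP match, and the window near Slc40a1 held adjoining TEAD and RUNX matches.
Lost, near Slc40a1 (chr1:45921623-45921822, plus strand): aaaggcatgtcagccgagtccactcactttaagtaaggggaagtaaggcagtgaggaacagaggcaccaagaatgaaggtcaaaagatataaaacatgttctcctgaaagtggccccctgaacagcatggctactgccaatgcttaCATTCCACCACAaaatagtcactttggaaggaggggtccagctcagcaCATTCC
Lost, in Pgm5 (chr19:24816207-24816406, plus strand): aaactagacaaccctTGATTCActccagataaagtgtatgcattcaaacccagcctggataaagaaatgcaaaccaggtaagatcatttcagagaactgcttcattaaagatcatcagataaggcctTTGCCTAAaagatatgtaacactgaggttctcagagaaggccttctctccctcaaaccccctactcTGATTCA
Lost, near Snx10 (chr6:51677611-51677810, plus strand): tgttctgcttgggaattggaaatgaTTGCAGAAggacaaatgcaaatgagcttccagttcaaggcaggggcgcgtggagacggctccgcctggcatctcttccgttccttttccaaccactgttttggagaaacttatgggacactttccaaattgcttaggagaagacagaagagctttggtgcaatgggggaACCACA

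Over all islands, the glucocorticoid receptor palindrome differed most in density between gained and lost islands, as described further on. The stretch around it is therefore shown for the 3 highest-scoring gained islands that hold it. These islands were chosen after the densities had been seen. They lie in an intron of Trim29, in an intron of Pkp1 and within Mef2d, and the printed stretches of 60 bp lie outside exons.
Palindrome in Trim29 (chr9:43122159-43122218, plus strand): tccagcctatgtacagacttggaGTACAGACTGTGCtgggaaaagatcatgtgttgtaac
Palindrome in Pkp1 (chr1:137798981-137799040, plus strand): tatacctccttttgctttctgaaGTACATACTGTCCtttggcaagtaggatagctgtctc
Palindrome in Mef2d (chr3:87976518-87976577, plus strand): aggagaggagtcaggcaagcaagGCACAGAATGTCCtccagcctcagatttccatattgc

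A similar number of islands appeared and disappeared. Gained islands numbered 17138, or 34.3% of the 48 h list (95% Wilson interval 33.9 to 34.7%), and lost islands 16706, or 33.2% of the 0 h list (32.8 to 33.6%). These intervals cover counting error only. The background of the comparison is the same 34.3% and 33.2%, since every island was classed. In bases, 73.8 Mb was covered at both times, 49.4 Mb at 0 h only and 59.0 Mb at 48 h only.

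As a scale for these shares, H3K27ac lists of the same cells and time were compared between their replicates. Between replicates A and B, 6.94 to 12.2% of H3K27ac islands had no counterpart, and between 0 h and 48 h of the same replicate letter 24.9 to 33.8% had none. No such replicate exists for H3K4me1, whose chromatin was also sheared more coarsely than that for H3K27ac, so the part of gained and lost islands that a repeat library would also give cannot be told apart from the effect of time. Nor can a change in part of the cells be told apart from a weaker change in all of them.

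Gained and lost islands were mostly short and weak. The median length was 1800 bp for gained and 1600 bp for lost islands, against 2400 bp for kept islands at 48 h and 2200 bp at 0 h. Of the gained islands 4061 (23.7%) scored above the median of their list, and of the lost islands 4049 (24.2%), against 63.7% and 62.8% of kept islands. When each list was cut into 10 equal parts by score, in the lowest part 61.8% of 48 h islands and 60.02% of 0 h islands had no counterpart, and in the highest part 1.36% and 0.796%.

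**Figure D1:**
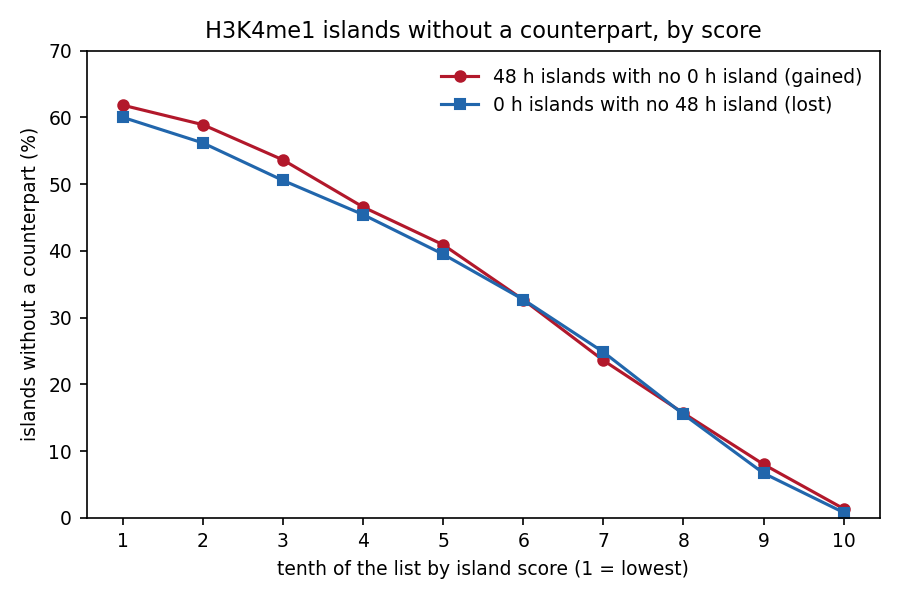
Percent of H3K4me1 islands without an island at the other time (vertical axis), for each of 10 equal parts of the list by score (horizontal axis, 1 lowest), at 48 h (circles) and 0 h (squares). Both lines fall with the score, from 61.8% and 60.02% to 1.36% and 0.796%, and lie close together throughout.

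When both lists were first held to islands above their median score, the shares were close to those of the full lists, with 8750 gained (35.1%) and 8459 lost (33.7%). Of these, 53.6% of the gained and 52.1% of the lost islands met a weaker island of the full list of the other time. Islands without a counterpart were seldom far from the other list: the nearest island of the other time lay at a median of 5.8 kb from gained and 7.2 kb from lost islands.

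Lost islands lay further from genes than gained islands. A promoter, taken as 1000 bp upstream to 100 bp downstream of an annotated start, was met by 13.2% of gained islands and 9.75% of lost islands, against 16.4% of islands kept at 48 h and 15.4% of those kept at 0 h. Of gained islands 46.7% were centred in introns and 36.4% between genes. Of lost islands 44.2% were centred in introns and 43.7% between genes. The median distance from the centre to the nearest start of a protein-coding gene was 27.1 kb for gained and 42.5 kb for lost islands, and 29.5 kb for islands kept at 48 h. Lost islands also had fewer G and C bases (44.8%) than gained (47.3%) and kept islands (47.4 to 47.8%), and 9.77 CpG dinucleotides per kb against 12.2 in gained islands. Among islands above the median score the contrast was of the same kind, with 14.4% of gained and 8.89% of lost islands at a promoter.

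The 6 highest-scoring gained islands all lay outside promoters, and H3K27ac took the same course there. The first lies between genes, 47.2 kb downstream of the start of Klf9, a glucocorticoid-responsive Krüppel-like factor (chr19:23257601-23268200). It spans 10600 bp and has a score of 381, which 1.08% of 48 h islands exceed. H3K27ac covered 0 bp of it at 0 h in all 4 libraries, 9200 and 8000 bp at 48 h in E cells and 3200 and 4000 bp at 48 h in SETD5 cells. SETD5-V5 covered 7400 and 5200 bp of it at 0 h and 7000 and 7200 bp at 6 h. The next islands lay 13.2 kb upstream of Mrpl33 (chr5:31881401-31890800), 55.04 kb downstream of the start of Rcl1 (chr19:29228401-29233400), and in introns of Trim29 (chr9:43120401-43128000), Hk2 (chr6:82689601-82693800), which encodes hexokinase 2 of glycolysis, and Fam49b (chr15:63869401-63874600). In all 6, H3K27ac was at 0 bp at 0 h in the 4 libraries, and at 48 h it covered 3200 to 9200 bp in both E libraries. In SETD5 cells at 48 h the island in Trim29 had 0 bp in both libraries, that near Mrpl33 had 0 and 1600 bp, and the other 4 had 1800 to 4600 bp.

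The highest-scoring lost islands showed the opposite order of times. The first lies between genes at chr1:45920601-45930000, 57.1 kb downstream of the start of Slc40a1, the iron exporter ferroportin, with a score of 163. H3K27ac covered all 9400 bp of it in both E libraries at 0 h and 2400 and 3000 bp at 48 h. In SETD5 cells it covered 8800 and 8200 bp at 0 h and 3800 and 4200 bp at 48 h. Others lay in introns of Pgm5 (chr19:24816001-24823000), 2210009G21Rik (chr2:136814801-136824200) and 5033411D12Rik (chr13:17131401-17140200), and 206 kb from the start of Snx10 (chr6:51677401-51682800). In the lost island in Pgm5, H3K27ac covered 6800 and 7000 bp in E cells at 0 h and 0 bp in both at 48 h, and in SETD5 cells 7000 bp in both at 0 h and 4600 bp in both at 48 h. The islands were ranked by H3K4me1 alone, and H3K27ac had no part in their choice.

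Over all gained islands the share with H3K27ac was higher at 48 h than at 0 h in every library. In E cells it was 16.8% and 15.1% at 0 h in replicates A and B and 33.4% and 32.5% at 48 h, and in SETD5 cells 17.95% and 18.5% at 0 h and 31.7% and 33.4% at 48 h. For lost islands the order was reversed. In E cells 42.7% and 40.2% of lost islands met an H3K27ac island at 0 h and 23.1% in both replicates at 48 h, and in SETD5 cells 45.3% and 43.9% did at 0 h and 29.9% and 31.6% at 48 h. The 2 times did not overlap in either class or vector. With 2 libraries against 2, an exact permutation test could not give a p under 0.333, so none is given.

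**Figure D2:**
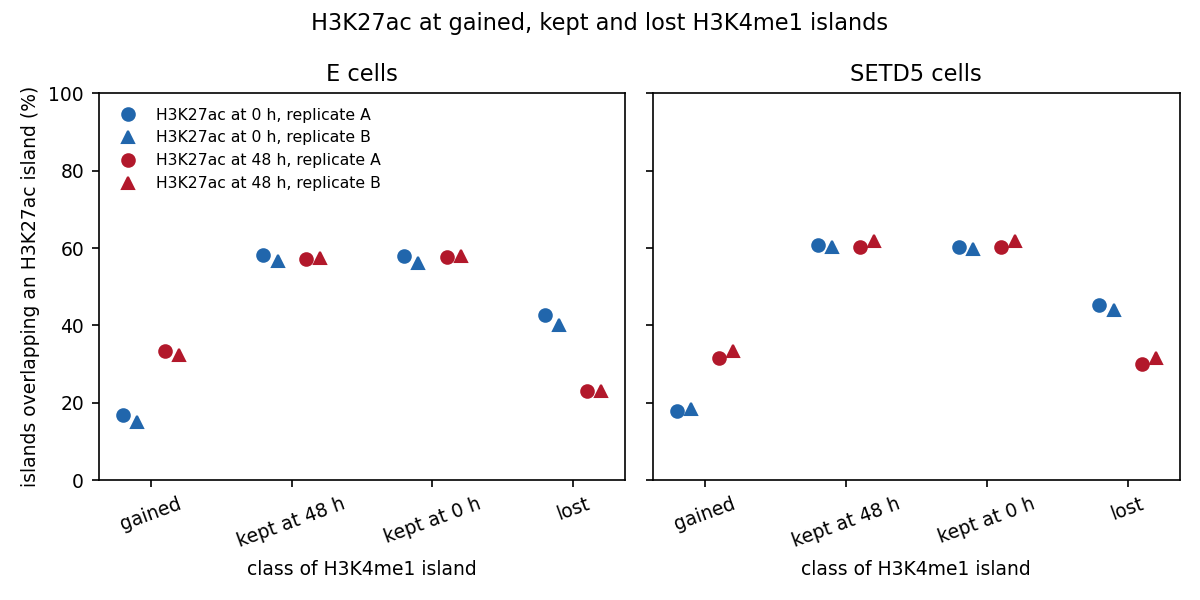
Percent of H3K4me1 islands that overlap an H3K27ac island (vertical axis) by class (horizontal axis), in E cells (left) and SETD5 cells (right), with 1 point per H3K27ac library at 0 h (blue) and 48 h (red), replicate A as a circle and B as a triangle. Gained islands are lower in blue, from 15.1 to 18.5%, than in red, lost islands the reverse, and kept islands lie between 56.1 and 61.9% in every library.

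Islands above the median score showed wider differences. In E cells the share of such gained islands with H3K27ac was 16.9% ± 1.18 (SD, n = 2) at 0 h and 50.3% ± 0.366 at 48 h, and for lost islands 61.5% ± 1.502 at 0 h and 27.1% ± 0.576 at 48 h. In SETD5 cells lost islands above the median had H3K27ac at 64.6% ± 1.69 at 0 h and 39.9% ± 1.41 at 48 h. The 48 h share of lost islands with H3K27ac was thus higher in both SETD5 libraries (29.9% and 31.6% of all lost islands) than in both E libraries (23.1% in each). The SETD5 lists of 48 h also hold more H3K27ac islands, 39068 and 39451 against 31292 and 33131 in E cells. With only the 31000 top islands by score kept in each library, the shares of lost islands were 24.6% and 25.8% in SETD5 and 23.0% and 21.8% in E cells, and those of gained islands 26.3% and 27.6% in SETD5 and 33.2% and 30.9% in E cells.

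Many gained islands had no H3K27ac at either time. In E cells 63.3% ± 1.14 (SD, n = 2) of gained islands and 54.2% ± 1.52 of lost islands met H3K27ac at neither time, against 30.3% ± 0.625 of islands kept at 48 h. Of gained islands above the median score, 47.3% in E cells and 49.4% in SETD5 cells met H3K27ac at neither time. A further 20.7% ± 0.0619 of gained islands had H3K27ac at 48 h only, and 12.2% ± 0.722 at both times. Of kept islands at 48 h, 45.1% ± 0.323 had H3K27ac at both times.

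SETD5-V5 met a lower share of gained and lost islands than of kept islands in each library. At 6 h, 41.6% and 30.1% of gained islands (replicates A and B) met a SETD5-V5 island, against 68.4% and 53.0% of islands kept at 48 h and 38.3% and 28.1% of lost islands. At 0 h the shares were 12.6% and 4.39% of gained, 37.4% and 15.7% of kept and of the 16706 lost islands 2673 and 951 met SETD5-V5. The SETD5-V5 lists differ in size, with 16054 and 6666 islands at 0 h and 35573 and 27220 at 6 h, so shares cannot be set against each other between libraries. Kept islands were also longer and higher in score than gained and lost islands, and lengths were not matched. Among islands above the median score, 53.7% and 39.4% of gained islands met SETD5-V5 at 6 h. The shares were 75.6% and 59.8% of islands kept at 48 h and 46.0% and 35.2% of lost islands. Endogenous SETD5, with 3293 islands at 6 h, met 3.83% of gained, 8.22% of kept and 2.62% of lost islands.

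Kept islands were joined into 29555 groups of overlapping 0 h and 48 h islands to compare their lengths. The median ratio of the 48 h to the 0 h length was 1.06. Groups at least 2-fold longer at 48 h numbered 3551 (12.01%) and groups at least 2-fold shorter 2380 (8.05%). In 2350 groups several 0 h islands met 1 island at 48 h, and in 1898 groups 1 island at 0 h met several at 48 h. H3K27ac in E cells covered 24.3% ± 3.12 (SD, n = 2) of the bases of the lengthened groups at 0 h and 46.7% ± 2.51 at 48 h. In the shortened groups it covered 50.5% ± 4.86 at 0 h and 31.9% ± 0.828 at 48 h, and in the remaining groups 47.2% ± 4.34 and 49.4% ± 2.09.

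The group with the largest added length ran through Rxra, which encodes the partner receptor of PPARγ: 8 islands of 40200 bp in all at 0 h became 2 islands of 59000 bp at 48 h (chr2:27563601-27623400). A group at chr2:167563801-167622400, in the region downstream of Cebpb, held 8 islands of 42400 bp at 0 h and 3 of 57400 bp at 48 h. The other 2 lay in Grk1 (5000 and 20200 bp) and Ksr1 (33200 and 48000 bp), which encode rhodopsin kinase and a scaffold of the Ras pathway. The group with the largest loss of length met a promoter close to Gpihbp1, which encodes the protein that carries lipoprotein lipase across capillary walls, with 21000 bp at 0 h and 12400 bp at 48 h. The next were near Gm5084 (11800 and 3800 bp), in an intron of Ccdc34 (9200 and 1600 bp) and near Usp24 (8400 and 1000 bp).

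H3K4me1 around genes was measured as the number of bases covered by islands within 50 kb of a protein-coding gene's start. Of 22238 genes, 13983 had at least 2000 bp at either time and were compared. A gene was called larger or smaller at 48 h where the areas differed at least 2-fold and by at least 2000 bp. By this rule 2622 genes were larger (18.8% of those compared) and 1411 smaller (10.1%), and the median area was 8313 bp at 0 h and 9937 bp at 48 h. The 48 h list covers more of the genome in all, 133 Mb against 123 Mb. When it was held to the 0 h length by dropping its weakest islands, 2076 genes were larger and 1864 smaller, so that 52.7% of calls were larger in place of 65.0%. Neighbouring genes share islands, and the counts are not of independent loci.

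H3K4me1 areas were larger at 48 h around many genes of lipid storage. Of the 31 genes of this list that were compared, 15 (48.4%) were larger and 0 smaller, against 18.8% and 10.1% of all genes, and the median area of the list was 10000 bp at 0 h and 25600 bp at 48 h. The number of larger genes ranged from 12 of 26 with a window of 20 kb to 21 of 31 at a fold of 1.5, against 23.5% and 30.8% of all genes. With the 48 h list held to the 0 h length it was 13 of 30, with 1 gene, the fatty acid elongase Elovl6, smaller. The shares of all genes were then 15.1% larger and 13.5% smaller. Around Mgll, the lipase that cleaves monoacylglycerols, H3K4me1 covered 21006 bp at 0 h and 53006 bp at 48 h, with 6 gained and 0 lost islands. Around Scd1, the desaturase that makes monounsaturated fatty acids, it covered 15999 and 46799 bp. The areas of Plin4, a lipid droplet coat protein, were 17025 and 41600 bp, and those of Gpam, the acyltransferase that begins triglyceride synthesis, 7800 and 29800 bp.

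H3K27ac around the leading genes of this list differed between the vectors. Within 50 kb of Mgll it covered 7200 and 1000 bp in E cells at 0 h and 45006 and 33006 bp at 48 h, but in SETD5 cells 3000 and 4800 bp at 0 h and 2206 and 3206 bp at 48 h. Around Scd1 it covered 3400 and 4000 bp in E cells at 0 h and 38599 and 37799 bp at 48 h, and in SETD5 cells 4400 and 4000 bp at 0 h and 15799 and 24999 bp at 48 h. In both loci the E areas of 48 h lay above the SETD5 areas of 48 h without overlap. Of the 15 genes with larger H3K4me1 areas, 14 had both H3K27ac areas of 48 h above both of 0 h in E cells and 10 in SETD5 cells, against 59.5% and 47.5% of all larger genes. Over all 13983 genes compared, 41.6% did so in E cells and 32.4% in SETD5 cells, and both areas of 48 h lay below both of 0 h in 21.9% and 29.5%.

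Cd36, Plin1 and Lpl, genes of fat cell lipid handling, were called larger. Around Cd36, the fatty acid carrier, H3K4me1 covered 0 bp at 0 h and 7424 bp at 48 h in 4 gained islands. Around Plin1, the main coat protein of fat cell lipid droplets, it covered 2800 and 10262 bp, and around Lpl, lipoprotein lipase, 17190 and 36590 bp in 8 gained islands and none lost. H3K27ac around Lpl covered 27590 and 19390 bp in E cells at 0 h and 53790 and 48590 bp at 48 h, and in SETD5 cells 17790 and 19990 bp at 0 h and 24790 and 24190 bp at 48 h.

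A pair of other fat cell genes had H3K27ac at 48 h without a larger H3K4me1 area. Fabp4, the fatty acid binding protein of fat cells, had 7200 bp of H3K4me1 at 0 h and 7400 bp at 48 h. H3K27ac around it covered 0 and 1025 bp in E cells at 0 h and 25400 and 19625 bp at 48 h, and in SETD5 cells 3800 and 2625 bp at 0 h and 6600 and 7800 bp at 48 h. Adipoq, which encodes adiponectin, had 3400 and 5000 bp of H3K4me1, with 2 gained and 2 lost islands. H3K27ac around Adipoq covered 5000 and 4600 bp in E cells at 0 h and 16600 and 11400 bp at 48 h, and in SETD5 cells 5000 and 4200 bp at 0 h and 4200 and 5600 bp at 48 h.

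**Figure D3:**
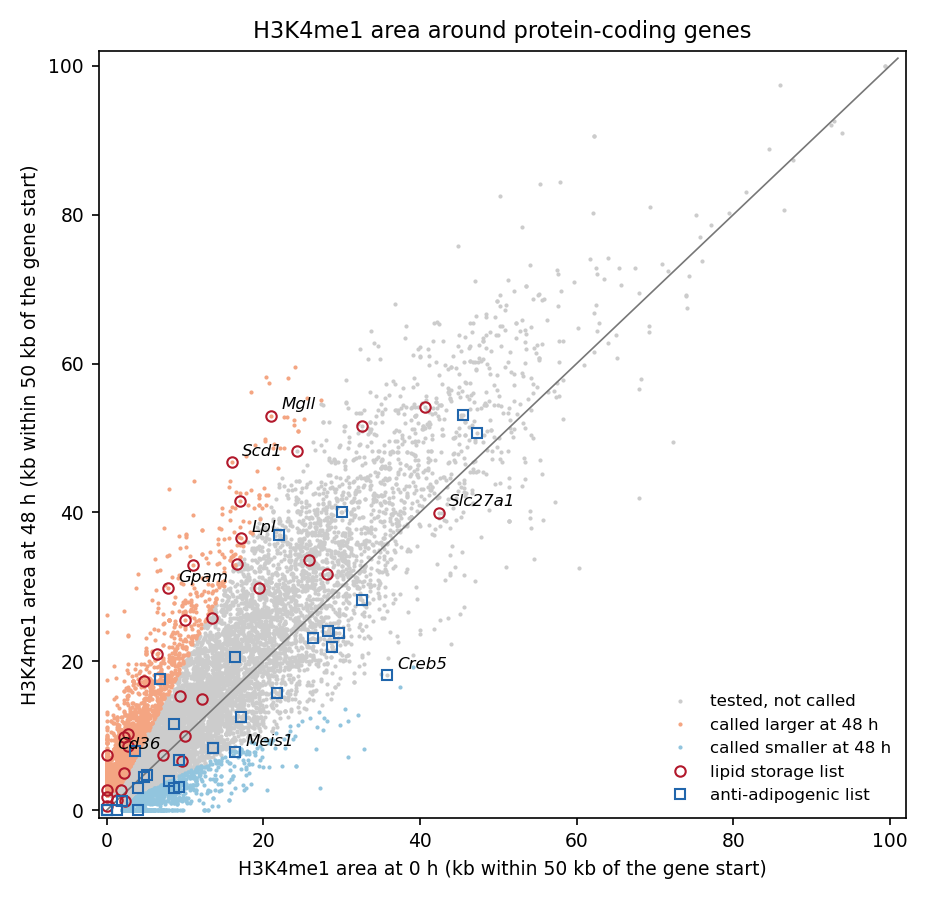
H3K4me1 area within 50 kb of the start of protein-coding genes, at 0 h (horizontal axis, kb) and 48 h (vertical axis, kb), with 1 point per gene compared, coloured by call, and all genes of the lipid storage list (red circles) and the anti-adipogenic list (blue squares). The line marks equal areas. Mgll, Scd1, Gpam and Lpl lie well above it, and Creb5 and Meis1 below.

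Among adipogenic transcription factors, Cebpb, Pparg and Cebpa had areas above the medians of all genes at both times. Cebpb had 36800 bp at 0 h and 53815 bp at 48 h, Pparg 51639 and 50839 bp, and Cebpa 23712 and 29712 bp, and none of the 3 was called. H3K27ac around Cebpa covered 17312 and 18712 bp in E cells at 0 h and 52712 and 46512 bp at 48 h, and in SETD5 cells 12312 and 12712 bp at 0 h and 15312 and 11712 bp at 48 h. Around Pparg it covered 32839 and 19639 bp in E cells at 0 h and 56639 and 50239 bp at 48 h, and in SETD5 cells 25639 and 29039 bp at 0 h and 41439 and 40839 bp at 48 h. Cebpd is annotated as a pseudogene in the release used and was not among the genes counted, and 2800 bp at 0 h and 4600 bp at 48 h were covered around its start, below the medians of all genes. Of the 23 factors compared, 6 (26.1%) were larger and 0 smaller, against 18.8% and 10.1% of all genes. With the 48 h list held to the 0 h length 3 were larger and 2, Nr3c1 and Nr1h3, smaller, against 15.1% and 13.5% of all genes. Larger ones were Zbtb16, a zinc finger factor that glucocorticoids induce (1000 and 19351 bp), Xbp1, the factor of the unfolded protein response (2800 and 15339 bp), and the neighbours Stat5a and Stat5b, which share their islands (9800 and 19800 bp for each). Around Zbtb16 the H3K27ac areas were 1200 and 0 bp at 0 h and 21751 and 20751 bp at 48 h in E cells, and 0 bp in both at 0 h and 14751 and 18751 bp at 48 h in SETD5 cells.

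Of 22 glucocorticoid and cyclic AMP responsive genes compared, 5 (22.7%) were larger and 2 smaller (9.09%), against 18.8% and 10.1% of all genes. At a fold of 1.5, 13 of 22 were larger, against 30.8% of all genes, and with islands above the median score 9 of 16 were larger and 0 smaller, against 25.4% and 13.6%. With the 48 h list held to the 0 h length 4 of 21 were larger and 3 smaller, against 15.1% and 13.5% of all genes. Fkbp5, a chaperone partner of the glucocorticoid receptor, had 15800 bp of H3K4me1 at 0 h and 44200 bp at 48 h. Ddit4, an inhibitor of mTOR signalling, had 22083 and 48718 bp, Errfi1, an inhibitor of the EGF receptor, 14800 and 34400 bp, and Glul, glutamine synthetase, 0 and 5000 bp. H3K27ac around Fkbp5 covered 16600 bp in both E libraries at 0 h and 58932 and 62132 bp at 48 h, and in SETD5 cells 16200 and 19400 bp at 0 h and 49800 and 51332 bp at 48 h. All 5 larger genes of this list had both H3K27ac areas of 48 h above both of 0 h in both vectors, as did 59.5% (E) and 47.5% (SETD5) of all larger genes. The smaller genes were Nr4a2, an orphan nuclear receptor (2800 and 0 bp), and Ptgs2, the inducible cyclooxygenase (2200 and 0 bp).

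Of adipokine and insulin response genes, 7 of 24 (29.2%) were larger and 3 smaller (12.5%), against 18.8% and 10.1% of all genes. With the 48 h list held to the 0 h length 4 were larger and 4 smaller, against 15.1% and 13.5%. Adipor2, an adiponectin receptor, had 22701 bp at 0 h and 52801 bp at 48 h, Retn, which encodes resistin, 5400 and 17031 bp, and Slc2a4, the insulin-responsive glucose transporter GLUT4, 5200 and 13690 bp. The smaller genes were those of the growth factor Igf1 (14000 and 5400 bp), its receptor Igf1r (5400 and 2600 bp) and the adaptor Irs1 (6800 and 1800 bp).

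Factors of the preadipocyte state and inhibitors of fat cell formation moved both ways. Of 28 compared, 5 (17.9%) were smaller and 2 (7.14%) larger, against 10.1% and 18.8% of all genes, and the median area was 15000 bp at 0 h and 12100 bp at 48 h. The number of smaller genes ranged from 1 of 29 with a window of 100 kb to 9 of 27 with islands above the median score. Of all genes, 8.94% and 13.6% were smaller at these settings, so at 100 kb the list did not exceed the share of all genes. At 100 kb 2 genes of the list were larger, against 14.4% of all genes. The genes called also changed with the window. At 100 kb the smaller gene was Nr2f2, and at 20 kb the smaller genes were Ddit3, Prrx1, Zeb1 and Creb5. Meis1, Runx2 and Wnt5a were smaller with the 50 kb window but with neither of these. Meis1, a homeobox factor, had 16400 and 7800 bp, Runx2, the master factor of bone formation, 9200 and 3200 bp, Zeb1, a zinc finger repressor, 8600 and 3000 bp, Wnt5a, a Wnt ligand, 8000 and 4000 bp, and Nr2f2, the orphan receptor COUP-TFII, 4000 and 0 bp. All 5 had both H3K27ac areas of 48 h below both of 0 h in E cells, and 2 of the 5 in SETD5 cells, against 47.6% and 49.8% of all smaller genes. This order sets no minimum difference, and its size varied. In E cells Nr2f2 had 23821 bp in both libraries at 0 h and 23221 bp in both at 48 h. Runx2 had 7400 and 7800 bp at 0 h and 2200 and 1600 bp at 48 h. Dlk1, the preadipocyte factor Pref-1, had 28800 bp at 0 h and 21968 bp at 48 h and was not called. The larger genes were the forkhead factor Foxc2 (6800 and 17671 bp) and Sox9 (3600 and 8000 bp), the master factor of cartilage.

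**Figure D4:**
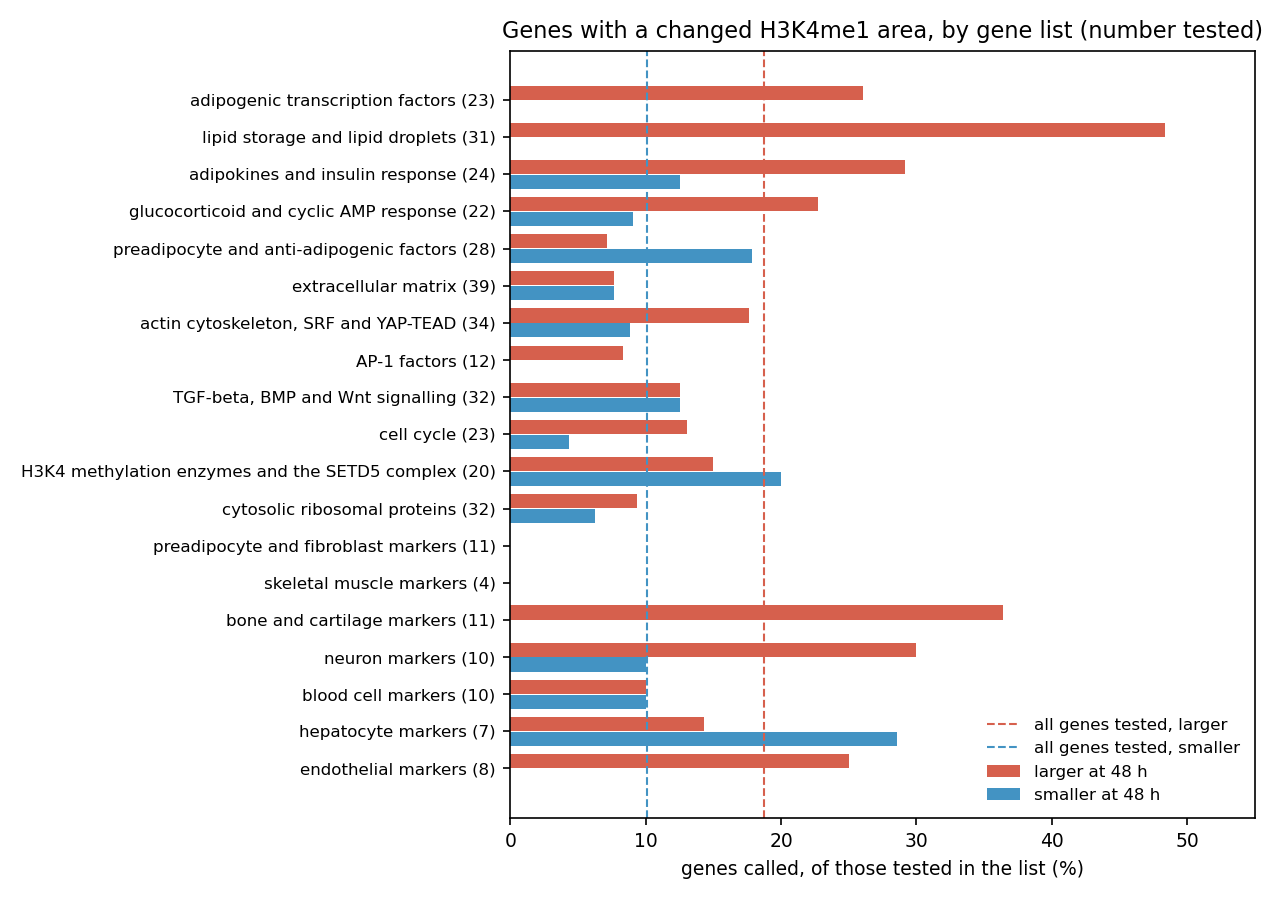
Percent of the compared genes of each list whose H3K4me1 area was larger (red bars) or smaller (blue bars) at 48 h (horizontal axis), with the number compared in brackets and the shares of all genes as dashed lines (18.8% larger, 10.1% smaller). The lipid storage list reaches 48.4% larger and 0 smaller, and several marker lists hold 11 or fewer genes.

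Across all genes the largest gain in covered bases was around Dcxr, the xylulose reductase, at 20395 bp at 0 h and 58201 bp at 48 h with 8 gained and 0 lost islands. It was followed by Krt13, a keratin gene (24000 and 59600 bp), Pkp1, a desmosome protein (8000 and 43217 bp), Fam70b (23200 and 58026 bp), Nr4a1, an orphan nuclear receptor (50277 and 82477 bp), Mgll, Sulf2, an extracellular sulfatase (36800 and 68038 bp), Scd1, 1110008P14Rik (33743 and 64343 bp) and Cnnm2, a magnesium transport protein (7400 and 37886 bp). Nr4a1, Sulf2 and 1110008P14Rik differed less than 2-fold and were not called. Around Pkp1, H3K27ac covered 0 bp in all 4 libraries at 0 h, 10200 and 8400 bp at 48 h in E cells and 1400 and 3600 bp in SETD5 cells. Around Krt13 it covered 3200 and 4200 bp in E cells at 0 h and 44000 and 39000 bp at 48 h, and 18200 and 24600 bp in SETD5 cells at 48 h.

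The largest loss was around 1700111E14Rik, at 60353 bp at 0 h and 32600 bp at 48 h, followed by Csf1, the macrophage growth factor (67987 and 42000 bp), Filip1l, a filamin A interacting protein (32800 and 8200 bp), Lrtm1 (27200 and 3000 bp), Gm6543 (30800 and 7200 bp), Wisp1, a secreted matricellular protein (72282 and 49400 bp), 1700034E13Rik (44000 and 22400 bp), Gm4877 (37400 and 16600 bp), and Ddc, aromatic amino acid decarboxylase (30800 and 12000 bp). Of these, 1700111E14Rik, Csf1, Wisp1 and 1700034E13Rik differed less than 2-fold and were not called. Around Csf1, H3K27ac covered 68400 and 55800 bp in E cells at 0 h and 31200 and 34200 bp at 48 h, and in SETD5 cells 65800 and 63600 bp at 0 h and 39200 and 41000 bp at 48 h. The areas around Csf1 were lower at 48 h in either vector without overlap.

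Over all called genes H3K27ac took the direction of H3K4me1 in most cases. Of the 2622 larger genes, the H3K27ac area was higher at 48 h in 74.3% and 72.8% in E cells (replicates A and B) and in 62.5% and 61.8% in SETD5 cells, against 55.5%, 59.3%, 47.4% and 46.3% of genes called neither way. Of the 1411 smaller genes it was lower in 61.6% and 59.4% in E cells and in 66.2% and 61.8% in SETD5 cells, against 39.7%, 35.5%, 47.3% and 48.7%. H3K27ac libraries did not enter the choice of these genes.

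The glucocorticoid receptor palindrome was denser in gained than in lost islands, and TEAD matches were less dense. The palindrome occurred at 0.0270 matches per kb in gained, 0.0235 in kept (48 h) and 0.0181 in lost islands, against 0.0171 in the genome. Gained islands thus had 1.49 times the density of lost islands (95% counting interval 1.34 to 1.66), from 858 and 529 matches, and 1.68 times among islands above the median score. The palindrome was held by 4.84% of gained and 3.10% of lost islands. TEAD matches ran the other way, at 0.594 per kb in gained and 0.705 in lost islands, a ratio of 0.844 (0.827 to 0.860), against 0.593 in the genome. TEAD factors bind DNA for the growth-related coactivators YAP and TAZ.

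C/EBP and AP-1 matches differed little between the classes. C/EBP matches occurred at 0.464 per kb in gained and 0.489 in lost islands, a ratio of 0.949 (0.927 to 0.971), both below the 0.511 of the genome. This ratio turned with base composition: among islands with 45 to 50% G and C, 6436 gained and 5565 lost, it was 1.10 (1.05 to 1.14). In the same islands the ratio was 1.48 (1.23 to 1.77) for the palindrome, 0.833 (0.806 to 0.861) for TEAD and 1.15 (1.10 to 1.203) for AP-1, which was 1.07 (1.04 to 1.10) over all islands. The EBF ratio was 1.32 over all islands and 1.07 (0.916 to 1.25) in this range. Over all islands the ratio was 1.06 for RUNX, 0.994 for PPAR-RXR (91 and 84 matches) and 1.06 for NFI (37 and 32 matches). Among islands above the median score the NFI ratio was 0.494, from only 7 and 13 matches. Within gained islands, those with H3K27ac at 48 h in E cells had 0.515 and 0.520 C/EBP matches per kb (replicates A and B) and those without 0.434 and 0.433. Within lost islands, those with H3K27ac at 0 h had 0.523 and 0.524 and those without 0.460 and 0.461.

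**Figure D5:**
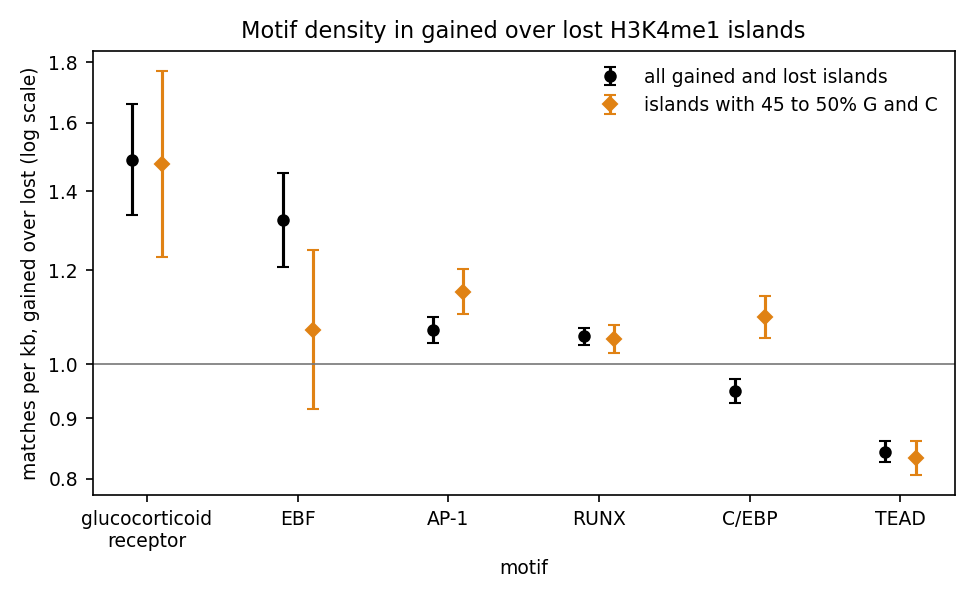
Ratio of motif matches per kb in gained over lost H3K4me1 islands (vertical axis, log scale) for 6 motifs (horizontal axis), over all islands (black circles) and islands with 45 to 50% G and C (orange diamonds), with 95% counting intervals as bars. The glucocorticoid receptor palindrome lies at 1.49 and 1.48, TEAD at 0.844 and 0.833, and C/EBP crosses the line of equal density.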

How the data were processed

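The islands were called by the authors with SICER2 in windows of 200 bp, with a gap of 400 bp (600 bp where SETD5 was profiled) and an E-value of 100, from reads mapped over 36 bp to mm9, and the submitters' processing notes also name Bowtie2 and deepTools. Each deposited list gives chromosome, start, end and a score of the authors' caller, with no counts per island, and no input library was used here. Absence from a list means only that a region was below the caller's threshold. The score ranked and filtered islands within a list and was never compared between lists. The total reads of each H3K4me1 library, 31875156 at 0 h and 31629740 at 48 h, are those stated with the study.

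Islands of 2 lists counted as overlapping from 1 bp on, in Python 3.11.15 with numpy 2.4.6, and plotted with matplotlib 3.10.9. Starts, promoters, exons and sequences came from NCBIM37, whose chromosome lengths equal those of mm9, with its GENCODE annotation. Positions are counted from 1. Gene areas, calls and motif densities were computed as defined with the results, the H3K27ac and SETD5-V5 shares are means and SDs over replicates A and B, and motif intervals cover counting error only. The text names the 6 highest-scoring gained and lost islands, the 4 kept groups with the largest added and lost length, the 10 genes with the largest gain and loss of covered bases, at most 1 in 200 kb, up to 4 called genes per list and direction, and 10 genes of fat cell biology. The members, gene lists and rules were chosen with earlier results of these data known. Of the 28 adipogenic factors listed, 27 were matched to the annotation, and all 34 genes of lipid storage were. The overlap, area and motif steps were checked on simulated data and returned what had been planted. Alternatives were other overlaps, margins, windows, folds, score limits, list lengths and ranges of base composition, and each replicate left out. A few genes that these rules name are not reported here. Other marks and expression data of the study were not analysed here.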

Additional observations from a re-analysis of the deposited data

Results flagged for a closer look

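Among 124 genes named by list or rank, 5 had H3K27ac areas within 50 kb of their start that moved in opposite directions in the 2 vectors, with both 48 h libraries on one side of both 0 h libraries in E cells and on the other side in SETD5 cells. The same count over all genes compared was not made, so 5 of 124 has no background share beside it and cannot be read as an excess. The rule also sets no minimum difference. The difference between the vectors was not tested. Around Sulf2, whose H3K4me1 area was among the 10 largest gains, H3K27ac covered 30400 and 24400 bp in E cells at 0 h and 12038 and 22400 bp at 48 h, and in SETD5 cells 17400 and 30600 bp at 0 h and 34238 and 36638 bp at 48 h. The mean difference in E cells minus that in SETD5 cells was -21619 bp for Sulf2. It was -5300 bp for Meis1, 1417 bp for Smad4, 3700 bp for Kdm6a and 3900 bp for Rpl28. Around Smad4 the areas were 1834 bp in both E libraries at 0 h and 2434 and 2634 bp at 48 h. In SETD5 cells they were 2834 and 3634 bp at 0 h and 2434 and 2600 bp at 48 h.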

How the results depend on the processing

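The H3K4me1 comparison has 1 library per time, and an island near the caller's threshold can be listed at one time only. No paired test was run, since no result comes from a test. Counterparts of H3K27ac islands between 0 h and 48 h were compared within a replicate letter, and H3K27ac values are given by letter. Of 69 alternative values, 46 were labelled unchanged, 22 moved and 1 turned its direction. Gene counts were labelled unchanged within 1.5-fold of the main count, which is not a measure of spread. Shares from 2 libraries were judged by their SD, and the other values by the 95% interval of the main value. With only islands above the median scores the shares were 35.1% gained, 33.7% lost, 50.3% of gained with H3K27ac at 48 h, 61.5% of lost with H3K27ac at 0 h, 46.6% of gained with SETD5-V5 at 6 h and 14.4% of gained at a promoter, and the C/EBP ratio was 0.925. Where the overlap had to reach 50% of the island they were 45.04% gained, 41.4% lost, 26.9% of gained and 35.5% of lost with H3K27ac. The other list widened by 1000 bp gave 30.3% gained and 29.6% lost, and islands merged within 1000 bp gave 33.9% lost. At a fold of 1.5, 4311 genes were larger. The following were chosen after seeing the data: the 31000 highest-scoring H3K27ac islands gave 32.1% of gained and 38.3% of lost islands, and islands with 45 to 50% G and C turned the C/EBP ratio to 1.10 and moved the AP-1 ratio to 1.15. Leaving out each replicate gave 32.5 to 33.4% of gained islands with H3K27ac at 48 h and 40.2 to 42.7% of lost islands at 0 h. For gained islands with SETD5-V5 at 6 h it gave 30.1 to 41.6%. With replicates A and B only, the value left always lies within their SD, so these unchanged labels are no check. The causes were not tested.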

Other observations

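Other gene lists moved both ways in H3K4me1 area. Of all genes compared, 18.8% were larger and 10.1% smaller. The shares were 7.69% larger and 7.69% smaller for extracellular matrix genes. They were 17.6% and 8.82% for actin, SRF and YAP-TEAD genes, and 12.5% and 12.5% for TGF-beta, BMP and Wnt signalling. Of 39 extracellular matrix genes compared, 3 were larger at 48 h and 3 smaller: the elastic fibre protein Fbln5 had 13000 bp at 0 h and 29336 bp at 48 h, the proteoglycan Vcan 1600 and 11400 bp and fibronectin (Fn1) 1000 and 3200 bp, while the proteoglycan Lum had 12000 and 6000 bp, the stromelysin Mmp3 6200 and 1200 bp and periostin (Postn) 3000 and 600 bp. Of 34 actin, SRF and YAP-TEAD genes, 6 were larger and 3 smaller. Tagln, an actin-binding protein, had 8600 and 27800 bp, the tropomyosin Tpm4 13800 and 27874 bp, the SRF coactivator Mkl2 6574 and 18400 bp and the coactivator Yap1 3200 and 11200 bp. Cnn3, a calponin, had 22400 and 6000 bp and Ankrd1, a target of YAP, 19000 and 7800 bp. With Filip1l, these 3 had both H3K27ac areas of 48 h below both of 0 h in E and in SETD5 cells. The same held for 47.6% (E) and 49.8% (SETD5) of all smaller genes. Of 32 genes of TGF-beta, BMP and Wnt signalling, 4 were larger, led by the receptor Tgfbr1 (2200 and 17400 bp), and 4 smaller. The smaller ones were the Wnt receptor Fzd2 (21456 and 8400 bp), the Wnt inhibitors Dkk2 (5400 and 0 bp) and Sfrp1 (3800 and 0 bp) and the ligand Bmp4 (4800 and 0 bp). H3K27ac around Bmp4 covered 8600 and 10400 bp in E cells at 0 h and 0 bp in both at 48 h, and in SETD5 cells 12000 and 14000 bp at 0 h and 0 and 1400 bp at 48 h.

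Of 12 AP-1 factors, 1 was larger, Batf3 (2400 and 7800 bp), and 0 smaller. Of 23 cell cycle genes 3 were larger and 1 smaller, of 32 cytosolic ribosomal protein genes 3 and 2, and of 20 genes of H3K4 methylation enzymes and the SETD5 complex 3 (Dpy30, Setd2 and Tbl1x) and 4 (the demethylases Kdm1a, Kdm5a, Kdm5b and Kdm6a). Of the marker lists, 0 of 11 preadipocyte and fibroblast and 0 of 4 skeletal muscle markers were called. Of bone and cartilage markers 4 of 11 were larger, among them the neighbours Bglap and Bglap2, which share islands, of neuron markers 3 larger and 1 smaller of 10, of blood cell markers 1 and 1 of 10, of hepatocyte markers 1 and 2 of 7 and of endothelial markers 2 and 0 of 8. The share of all genes compared was 18.8% larger and 10.1% smaller.

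Islands were unevenly spread over chromosomes. Chromosomes 19 and 6 held 43.0 and 39.3 islands per Mb at 48 h and chromosome X 1.398. On chromosome X, 209 of 351 islands (59.5%) were lost and 98 of 233 (42.1%) gained, the highest lost share of the chromosomes with over 100 islands, while chromosomes 6 and 19 had 24.5% and 24.9% lost.

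H3K27ac islands of 48 h found in both libraries of 1 vector and in neither of the other met H3K4me1 differently. Of 2002 such islands of E cells, 36.2% met H3K4me1 at 0 h and 54.5% at 48 h, and 24.8% met a gained and 5.74% a lost island. Of 6036 such islands of SETD5 cells, 42.9% met H3K4me1 at 0 h and 37.1% at 48 h, and 10.5% met a gained and 16.2% a lost island. These islands are chosen by H3K27ac and not by H3K4me1, and what the virus label of the H3K4me1 libraries has to do with the difference was not tested.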
